A study of Mus musculus with 6 samples.

Results

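Nuclei carrying the transcripts of Mcidas, Deup1 and Cdc20b, a set of genes that is switched on while a cell builds many cilia, were examined in single-nucleus RNA-sequencing (snRNA-seq) libraries of mouse brain. A nucleus was counted as forming when it held at least 2 unique molecular identifiers (UMIs) of Mcidas, Deup1 and Cdc20b together and at most 2 of the choroid plexus genes Slc4a5, Kl and Clic6. This rule found 238 of 60724 nuclei. The 3 genes chose the members, so their levels and the number of members are given as a description with no test.

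The libraries came from C57BL/6 S-56 neonates that received 5 µl of lysophosphatidic acid (LPA) or of vehicle, 0.01% bovine serum albumin, in the right lateral ventricle at P7. LPA injection is used here as a model of post-hemorrhagic hydrocephalus. Whole brains without olfactory bulbs and cerebellum were taken at P15, nuclei negative for the neuronal protein NeuN were sorted, and each of the 3 LPA and 3 vehicle libraries held 1 brain. The libraries held 48852970 to 65688644 UMIs, and 8102 to 12410 nuclei per library passed the filters of at least 300 genes and at most 1% mitochondrial UMIs. Of the kept barcodes, 828 occurred in more than 1 library, among them 3 of the 238 forming nuclei, and no 2 forming nuclei shared a barcode.

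Ependymal cells line the ventricles and carry tufts of motile cilia that move cerebrospinal fluid. A multiciliated cell leaves the cell cycle and then produces many centrioles at once, largely on deuterosomes, ring-like platforms scaffolded by the product of Deup1. Each centriole docks at the cell surface as a basal body and grows an axoneme. Gmnc and Mcidas encode coiled-coil regulators of the geminin family that act with E2f4 and E2f5, Ccno encodes a cyclin-like protein needed for centriole production, and Foxj1 and the Rfx factors switch on the genes of the axoneme. Centriole production in these cells uses parts of the mitotic machinery although the cell does not divide.

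Mcidas, Cdc20b and Ccno are neighbours in the genome. On GRCm38, in the GENCODE annotation, Ccno lies at chr13:112987802-112990777, Mcidas at chr13:112993845-113000394 and Cdc20b at chr13:113035111-113091195, all on the plus strand and together over 103394 bases. Gaps of 3067 and 34716 bases separate them. Deup1 lies elsewhere, at chr9:15559864-15627933 on the minus strand. The span of Cdc20b also holds the miRNA genes Mir449c, Mir449b and Mir449a on the same strand. The miRNAs themselves were not measured, and 2 of their mature sequences, from RefSeq on GRCm38, are shown because their host gene chose the nuclei, with the seed (bases 2 to 8) in capitals, which is the same in both.
mmu-miR-449a-5p: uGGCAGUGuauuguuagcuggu
mmu-miR-449c-5p: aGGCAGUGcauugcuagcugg

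Levels of other genes around the cluster differed from gene to gene. In CPM, UMIs of a gene scaled to the total UMIs of a population, forming nuclei with at least 10 UMIs of the 3 genes held 50.2 ± 13.8 CPM of Plpp1 and 20.3 ± 6.28 of Dhx29 in the LPA libraries (mean ± SD, n = 3). In mature ciliated nuclei these were 97.4 ± 10.3 and 25.5 ± 3.57 CPM. Gpx8, which lies inside Cdc20b on the opposite strand, was at 24.6 ± 16.2 and 8.75 ± 1.05 CPM. The lincRNA 1700084D21Rik downstream of Cdc20b was at 8.56, 31.5 and 13.6 CPM in the 3 LPA libraries, against 0.230 ± 0.398 CPM in mature nuclei.

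Forming nuclei were more frequent in every LPA library than in any vehicle library. They were 55 of 8525, 65 of 10266 and 87 of 9102 nuclei in the LPA libraries, which are 0.645%, 0.633% and 0.956%. In the vehicle libraries they were 12 of 8102, 7 of 12410 and 12 of 12319 nuclei, which are 0.148%, 0.0564% and 0.0974%. Exact (Clopper-Pearson) 95% intervals, which cover counting error only, ran from 0.486% to 0.839% in LPA 1 and from 0.0766% to 0.259% in vehicle 1, the highest vehicle library. The means were 0.745 ± 0.183% and 0.101 ± 0.0459% (SD, n = 3 each).

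At full depth the ratio between the groups was wider among the nuclei with many UMIs of the 3 genes, at 20.9 against 7.40 for all forming nuclei. It was not wider when every nucleus was thinned to 2000 UMIs, at 17.9 against 18.3. Forming nuclei with at least 10 such UMIs numbered 33, 33 and 44 in the LPA libraries and 2, 1 and 3 in the vehicle libraries, or 0.397 ± 0.0815% and 0.0190 ± 0.00951%. Those with 2 to 9 UMIs numbered 22, 32 and 43 against 10, 6 and 9, or 0.347 ± 0.112% and 0.0816 ± 0.0383%. Within the LPA libraries 61 nuclei had exactly 2 UMIs, 19 had 3, 7 had 4, 10 had 5 to 9, 35 had 10 to 19, 50 had 20 to 39 and 25 had 40 or more, up to 100. With every nucleus thinned to 2000 UMIs, which left out 671 to 1555 shallower nuclei per library, the shares were 0.526% and 0.0287%. For at least 10 UMIs the thinned shares were 0.245% and 0.0137%.

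Few UMIs of the 3 genes were not particular to ciliated nuclei. Of 14660 astroglial nuclei, which should lack these genes (at least 8 UMIs of Slc4a4, Aqp4, Gja1 and Bmpr1b, at most 2 of the cilia genes and at most 1 of Mcidas, Deup1 and Cdc20b), 1.91% held 1 such UMI at a median of 4230 UMIs per nucleus. That share was 2.50% in LPA and 1.29% in vehicle libraries, and among all nuclei exactly 1 UMI was found in 2.57 ± 0.451% and 1.32 ± 0.114%. Since nuclei with 2 or more such UMIs were not counted as astroglial, this share covers 1 UMI only, and 44 of the 238 forming nuclei had at least 8 astroglial UMIs. How much free RNA adds to the nuclei with 2 or 3 UMIs was not tested. Just inside the threshold, 31 of the 82 nuclei with 2 UMIs (37.8%) also had at least 8 UMIs of the cilia genes Dnah12, Cfap299, Spag17 and Hydin. Just outside it this was so for 156 of the 1146 nuclei with 1 UMI (13.6%).

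**Figure D1:**
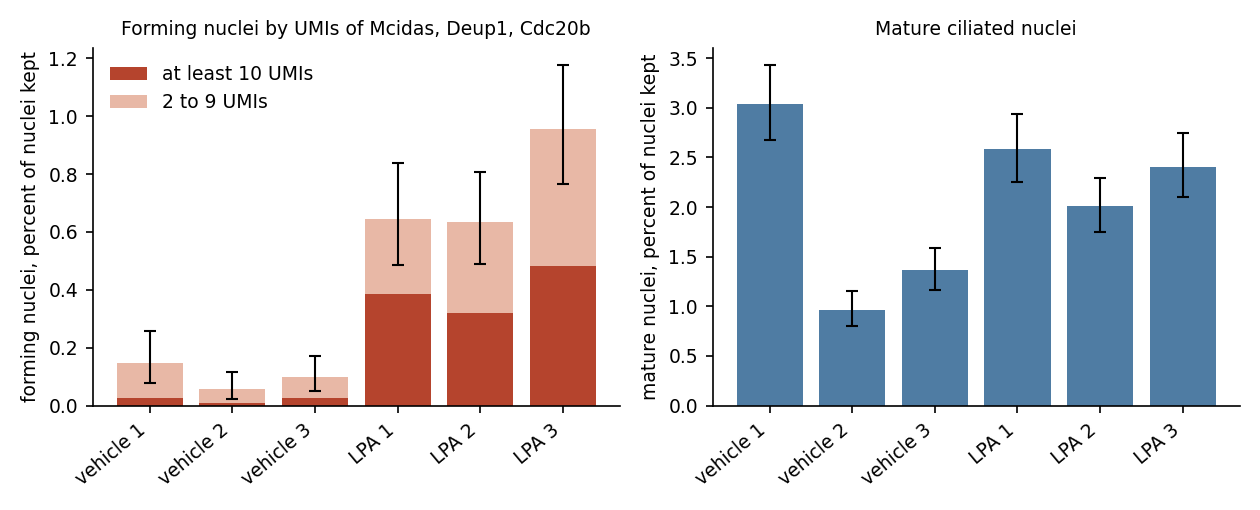
Shares of forming nuclei (left, split by UMIs of Mcidas, Deup1 and Cdc20b) and of mature ciliated nuclei (right) in percent of the nuclei kept, 1 bar per library, with exact 95% intervals for the whole bar. The 3 LPA libraries stand at 0.633% to 0.956% forming nuclei and the 3 vehicle libraries at 0.0564% to 0.148%, while the mature shares of both groups overlap.

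Mature ciliated nuclei did not follow this order. They were defined by at least 8 UMIs of the 4 cilia genes and at most 1 of Mcidas, Deup1 and Cdc20b, and numbered 1179. The LPA libraries held 220, 206 and 219 (2.58%, 2.01% and 2.41%) and the vehicle libraries 246, 120 and 168 (3.04%, 0.967% and 1.36%). The groups overlapped, since vehicle 1 was the highest of all 6. The means of 2.33 ± 0.294% and 1.79 ± 1.10% gave p = 0.4 in an exact two-sided permutation test (0.1 is the smallest p that 3 against 3 libraries allow). The difference was 0.542 percentage points with the mitochondrial filter and -0.0575 without it.

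The label of cilia formation was checked against the 4 cilia genes, which the rule did not use. Of the 116 forming nuclei with at least 10 UMIs, 102 had at least 8 UMIs of the cilia genes. Of the 122 with 2 to 9 UMIs, 52 had at least 8 and 58 had at most 2. All 3 genes of the rule were seen in 92 of the 116, and only 1 of them in 94 of the 122, which the number of UMIs itself favours. Over all 238, 154 had at least 8 cilia UMIs and 62 at most 2, so the word forming names the rule and not every nucleus. The doublet caller Scrublet marked 30.3% of forming, 28.2% of mature, 35.8% of cycling, 32.7% of astroglial and 17.9% of all nuclei. Forming nuclei had a median of 4823, 5754 and 5656 UMIs in the LPA libraries, more than the 4600.5, 3647.5 and 3609 of mature nuclei.

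Levels were compared between populations within libraries. UMIs were summed per library and population and fitted in edgeR with the library as a block, over the 5 libraries with at least 10 forming nuclei (LPA 1 to 3, vehicle 1 and vehicle 3). Differentially expressed genes (DEGs) were those past 0.05 after adjustment whose log2 fold-change was 1 or more in size. Because the forming nuclei of both vehicle libraries mostly held 2 to 9 UMIs, the fit was repeated with forming nuclei of at least 10 UMIs, which rests on the 3 LPA libraries only. Levels in CPM are given for those LPA nuclei, and fold-changes for all forming nuclei in the 5 libraries unless stated, so that a fold-change and the ratio of the levels beside it need not match. Against mature nuclei, 180 of 11201 genes were higher (1.61%) and 335 lower (2.99%) in forming nuclei, and 436 (3.68%) and 487 (4.11%) of 11861 in those with at least 10 UMIs. Both directions together these are 4.60% and 7.78%. Without TMM scaling the split was 221 higher and 250 lower. The 515 DEGs in all became 970 with Scrublet doublets left out and 341 in a fit of forming and mature nuclei alone.

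Among the regulators, several genes outside the rule were higher in forming nuclei. Foxn4, a forkhead factor of early multiciliated cells, was at 116, 74.9 and 106 CPM in LPA nuclei with at least 10 UMIs, against 0.690, 0.891 and 1.53 CPM in mature nuclei (adjusted p = 1.75e-09). The mature values of Foxn4 rest on 1, 1 and 2 UMIs, so no fold is given. Ccno was at 107, 31.5 and 78.9 CPM, against 0.690, 0 and 1.53 CPM, where the mature values rest on 3 UMIs (adjusted p = 1.75e-07). Myb, which drives early steps of centriole production, was at 381, 260 and 394 CPM, against 80.0, 90.0 and 88.0 CPM. In these 3 genes each forming value was above each mature one. In the fit of all forming nuclei Myb rose by 1.22 (SE 0.16, adjusted p = 2.64e-06), and Foxn4 and Ccno were too low to be tested. With forming nuclei of under 8 cilia UMIs, the log2 fold-change of Myb, forming vs mature, was -0.16 (adjusted p = 0.799). LPA nuclei with at least 10 UMIs held 319 ± 16.8 CPM of Mcidas, 852 ± 114 of Deup1 and 2644 ± 412 of Cdc20b, against 0.594 ± 1.03, 24.2 ± 4.76 and 1.67 ± 1.64 CPM in mature nuclei.

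Trp73, Foxj1 and Rfx3 did not reach the fold-change limit. Trp73, a p53-family factor upstream of the cilia programme, was at 204 ± 34.5 CPM in nuclei with at least 10 UMIs and 99.6 ± 4.83 in mature nuclei (log2 fold-change 0.96, SE 0.21, adjusted p = 0.00215, in the fit of at least 10 UMIs). Foxj1 was at 150 ± 30.4 and 79.1 ± 3.74 CPM (0.82, SE 0.18, adjusted p = 0.00265, in the same fit). Neither passed the test over all forming nuclei (adjusted p = 0.138 and 0.579). With forming nuclei of under 8 cilia UMIs, the log2 fold-change of Foxj1, forming vs mature, was -2.05 (adjusted p = 0.000147). Gmnc, which acts upstream of Mcidas, went the other way, with 29.97, 23.6 and 29.9 CPM against 50.4, 79.3 and 49.0 (log2 fold-change -1.16, adjusted p = 0.017, in the fit of at least 10 UMIs). Over all forming nuclei its change was -0.75 (adjusted p = 0.231). Rfx3 was at 546 ± 46.2 and 652 ± 32.8 CPM. Of 18 regulators, 13 were tested against mature nuclei and 2 were higher DEGs (Myb and E2f7), with a median log2 fold-change of 0.21, beside -0.04 over all genes tested. With at least 10 UMIs 15 were tested, 4 were higher and 2 lower.

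**Figure D2:**
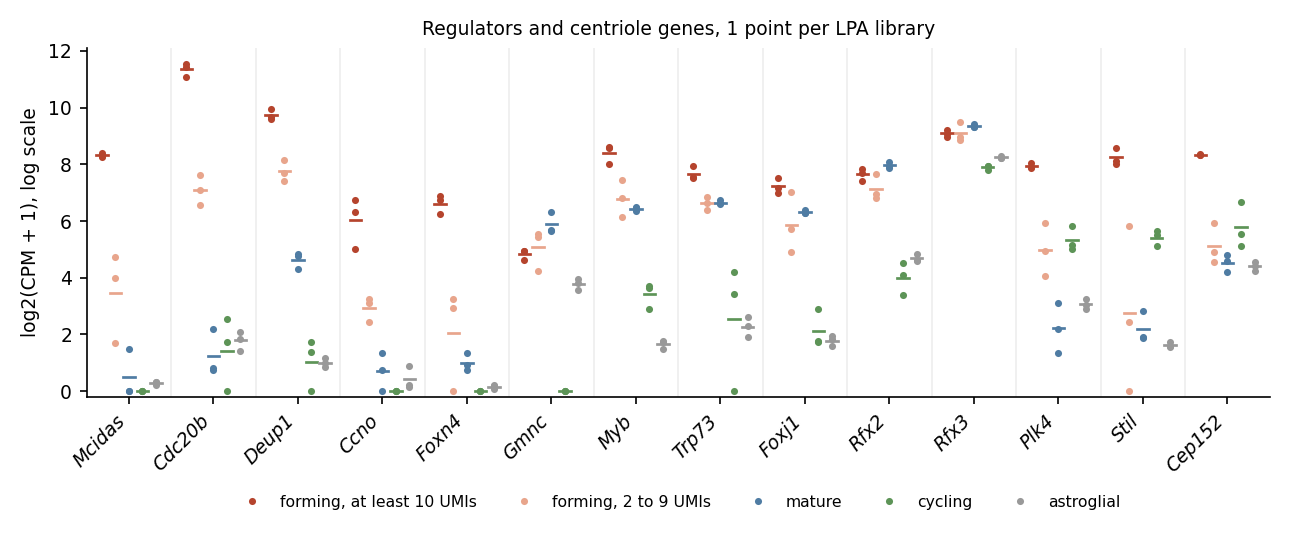
Levels of regulators and centriole genes as log2(CPM + 1) in 5 populations, where points are the 3 LPA libraries and lines their means. Mcidas, Cdc20b and Deup1 chose the forming nuclei; outside the rule, Ccno, Foxn4, Plk4, Stil and Cep152 stand highest in forming nuclei with at least 10 UMIs, and Gmnc and Rfx3 do not.

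Bases before the start sites of Deup1 and Ccno are shown because Deup1 chose the nuclei, Ccno was higher in them, and both hold a match to the X-box type motif of Rfx factors. The 250 bases of Deup1 are chr9:15627847-15628096 (minus strand) and those of Ccno chr13:112987552-112987801 (plus strand), from RefSeq on GRCm38. RefSeq gives 2 start sites for Deup1, and the one used here lies inside the GENCODE gene given above, so that some of the bases shown, the match among them, are within that gene. The promoter of the other RefSeq start site holds no match. The match on either strand to the letters GTTGCC, any 2 bases and GG is in capitals.
Deup1: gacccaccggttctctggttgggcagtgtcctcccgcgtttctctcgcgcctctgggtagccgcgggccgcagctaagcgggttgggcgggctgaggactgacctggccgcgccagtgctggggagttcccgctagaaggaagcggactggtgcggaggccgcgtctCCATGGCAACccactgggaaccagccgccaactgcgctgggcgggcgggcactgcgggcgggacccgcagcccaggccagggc
Ccno: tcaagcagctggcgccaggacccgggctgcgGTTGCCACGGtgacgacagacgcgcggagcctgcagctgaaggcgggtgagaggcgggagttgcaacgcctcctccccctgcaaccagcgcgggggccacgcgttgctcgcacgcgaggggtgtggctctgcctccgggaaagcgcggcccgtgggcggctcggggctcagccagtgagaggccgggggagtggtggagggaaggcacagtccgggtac

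The match begins 83 bases before this RefSeq start site of Deup1 and 219 bases before that of Ccno. The motif was in 2.25% of 32851 promoters of 300 bases, in 3.73% of the 8712 tested genes with a promoter, in 3.03% of the 132 genes higher in forming than in mature nuclei and in 6.17% of the 243 lower. The cell cycle motif TTTGAA was in 17.9%, 14.0%, 34.8% and 14.8% of the same sets, and in 22.5% of the 325 genes higher in nuclei with at least 10 UMIs. Ckap2l, Kif4 and Top2a were among the genes with a match. The E2F type motifs TTTCCCGC and TTTGGCGC were each in 3.03% of the genes that were higher and in 2.23% and 1.04% of the tested genes. A match is a description of these letters, not of a bound site.

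Several genes of centriole production rose in forming nuclei. Plk4, the kinase that starts a new centriole, was at 261, 232 and 237 CPM in LPA nuclei with at least 10 UMIs, against 7.59, 3.57 and 1.53 CPM in mature nuclei. Over all forming nuclei its log2 fold-change was 4.25 (SE 0.34, adjusted p = 4.72e-10). Stil, which works with Plk4 at the same step, was at 257, 280 and 381 CPM against 2.76, 2.67 and 6.12 (4.99, SE 0.26, adjusted p = 1.13e-13). Cep152, the Plk4 receptor on the parent centriole, was at 330, 323 and 318 CPM against 17.2, 26.7 and 23.0 (2.86, SE 0.22, adjusted p = 2.76e-10). No library of either population overlapped the other in these 3 genes.

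Of 33 centriole genes in the files, 31 were tested and 9 were higher and none lower (median log2 fold-change 0.65), and 17 of 32 were higher with at least 10 UMIs (median 1.09). Cep295, Cntrob, Poc1a, Cep57l1, Pcnt and Rttn were the other DEGs over all forming nuclei, with log2 fold-changes of 1.06 (Pcnt) to 2.20 (Poc1a). Sass6, which builds the cartwheel of the new centriole, was at 56.2 ± 20.6 CPM against 18.4 ± 2.22 and changed by 0.93 (SE 0.25, adjusted p = 0.0123) over all forming nuclei, under the limit, and was a DEG with at least 10 UMIs (adjusted p = 0.000547). Summed over the list, forming nuclei with at least 10 UMIs held 5220 ± 300 CPM, those with 2 to 9 UMIs 2018 ± 362, mature nuclei 1864 ± 75.1 and cycling nuclei 1802 ± 176. The summed list includes Deup1, which chose the nuclei.

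The next question was how far these nuclei resembled dividing ones. Cycling nuclei were defined by at least 3 UMIs of Mki67, Top2a, Cenpf and Aspm, at most 1 of Mcidas, Deup1 and Cdc20b and at most 2 of the cilia genes, and numbered 344. At least 3 UMIs of Mki67, Top2a, Cenpf and Aspm were also held by 48 of the 116 forming nuclei with at least 10 UMIs. The same was so for 6 of the 122 with 2 to 9 UMIs and for 10 of the 1179 mature nuclei. Forming nuclei shared some mitotic genes with cycling nuclei and held less of most genes of DNA replication. Against cycling nuclei 1142 of 11197 genes were higher (10.2%) and 400 lower (3.57%), 13.8% in all. With at least 10 UMIs 11.4% of 11857 genes were higher and 5.55% lower, 16.9% in all. Oligodendrocyte lineage markers differed between the same populations, with 7 of 16 lower in forming nuclei, among them Pdgfra and Olig2, and 12 of 16 with at least 10 UMIs. They summed to 3206, 2463 and 2048 CPM in LPA nuclei with at least 10 UMIs and 5755, 6437 and 6904 in cycling nuclei, with Mbp the most abundant, and their part in the comparison was not tested.

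Genes of G2 and mitosis were higher in forming than in mature nuclei for 20 of 30 tested genes, with 1 lower, Nuf2, and a median of 2.03 (23 of 31 and none lower, median 3.10, with at least 10 UMIs). Top2a, the topoisomerase of replicating and dividing nuclei, was at 248, 252 and 296 CPM in LPA nuclei with at least 10 UMIs and at 4.14, 15.2 and 3.06 in mature nuclei (log2 fold-change over all forming nuclei 4.61, SE 0.28, adjusted p = 4.16e-12). Its level in cycling nuclei, which it helped to choose, was 277, 431 and 328 CPM. Cdk1, the mitotic kinase, was at 24.9 ± 6.82 CPM against 1.33 ± 0.572 in mature and 21.5 ± 10.2 in cycling nuclei (3.39, SE 0.52, adjusted p = 2.82e-05 against mature, and -0.57, SE 0.37, adjusted p = 0.29 against cycling). Mki67, present throughout the dividing cycle, was in contrast at 4.28, 0 and 2.72 CPM, against 0, 1.78 and 4.59 in mature and 84.4, 190 and 109 in cycling nuclei, and did not pass the test against mature nuclei (0.88, SE 1.06, adjusted p = 0.714).

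Most replication genes were lower in forming than in cycling nuclei. Of 26 S phase genes tested, 23 were lower and none higher in forming than in cycling nuclei (median -2.14), beside 13 lower and none higher of 26 G2 and mitosis genes (median -1.31; with at least 10 UMIs, 22 lower and none higher of 30 S phase genes, and 8 lower and 1 higher of 27 G2 and mitosis genes). Summed over the S phase list, LPA nuclei with at least 10 UMIs held 766, 540 and 503 CPM and cycling nuclei 1467, 2465 and 1620. Rrm2, a subunit of the enzyme that makes deoxynucleotides, was at 0, 0 and 2.72 CPM against 22.3, 41.7 and 17.0 (adjusted p = 2.07e-05 over all forming nuclei). Mcm10, a replication initiation factor, was at 4.28, 0 and 2.72 CPM against 17.5, 25.5 and 36.4 (adjusted p = 2.36e-06), and Neil3, a DNA glycosylase, at 4.28, 0 and 0 CPM against 74.9, 128 and 82.6 (adjusted p = 5.4e-11). These forming values rest on 3 UMIs or fewer, so no fold is given. The mitotic genes Aurkb and Ska1 were also near 0, at 2.72 ± 4.71 and 1.31 ± 2.28 CPM, against 28.9 ± 13.8 and 21.9 ± 3.20.

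A few replication genes were nevertheless above the mature level. Dtl, which marks the licensing factor Cdt1 for destruction, was at 128, 47.3 and 70.7 CPM, against 0.690, 1.78 and 2.30 in mature and 55.8, 99.7 and 55.9 in cycling nuclei (4.77, SE 0.55, adjusted p = 3.46e-07 against mature, and -0.78, SE 0.33, adjusted p = 0.0871 against cycling). Cdt1 itself was at 29.8 ± 12.04 CPM against 1.84 ± 0.976 in mature and 43.2 ± 15.8 in cycling nuclei. In all, 7 of 26 S phase genes tested were higher than in mature nuclei and none lower (median 0.90).

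Single regulators of the cycle are described here, while 13 of the 17 tested genes of cycle entry, exit and brakes were no DEGs against mature nuclei (median 0.08). Ccna1, a cyclin A better known from germ cells, was at 176, 177 and 133 CPM in LPA nuclei with at least 10 UMIs, 31.7, 29.4 and 26.0 in mature and 0, 0 and 2.43 in cycling nuclei. It rose by 1.70 against mature nuclei (SE 0.27, adjusted p = 3.66e-05) and differed from cycling nuclei, where it rested on 1 UMI in the LPA libraries (adjusted p = 5.21e-10). Ccna2, the cyclin A of dividing cells, was at 0, 0 and 2.72 CPM, too low to be tested. Fbxo43, an inhibitor of the anaphase-promoting complex, was at 17.1, 27.6 and 43.5 CPM, against 0, 1.78 and 2.30 in mature nuclei and 0 in all 3 LPA samples of cycling nuclei (4.39, SE 0.63, adjusted p = 4.72e-05 against mature nuclei in the fit of at least 10 UMIs). E2f7, a repressor of E2F target genes, was at 325, 162 and 180 CPM, against 5.52, 4.46 and 3.83 in mature and 65.3, 88.1 and 51.0 in cycling nuclei. It was higher than in mature (4.21, SE 0.30, adjusted p = 7.01e-11) and than in cycling nuclei (0.95, SE 0.24, adjusted p = 0.00378), the second under the fold-change limit but past it with at least 10 UMIs (1.71, SE 0.23, adjusted p = 5.76e-06). Mdm1, a centriolar protein that restrains duplication, was at 257 ± 38.2, 43.2 ± 4.99 and 22.2 ± 15.4 CPM (1.68, SE 0.19, adjusted p = 3.14e-07 against mature, and 2.81, SE 0.26, adjusted p = 1.04e-09 against cycling nuclei). Of 17 tested genes of cycle entry, exit and brakes, 4 were higher than in mature nuclei (Ccna1, Mdm1, Rbl1 and Wee1) and none lower, and 3 were higher and 5 lower than in cycling nuclei.

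**Figure D3:**
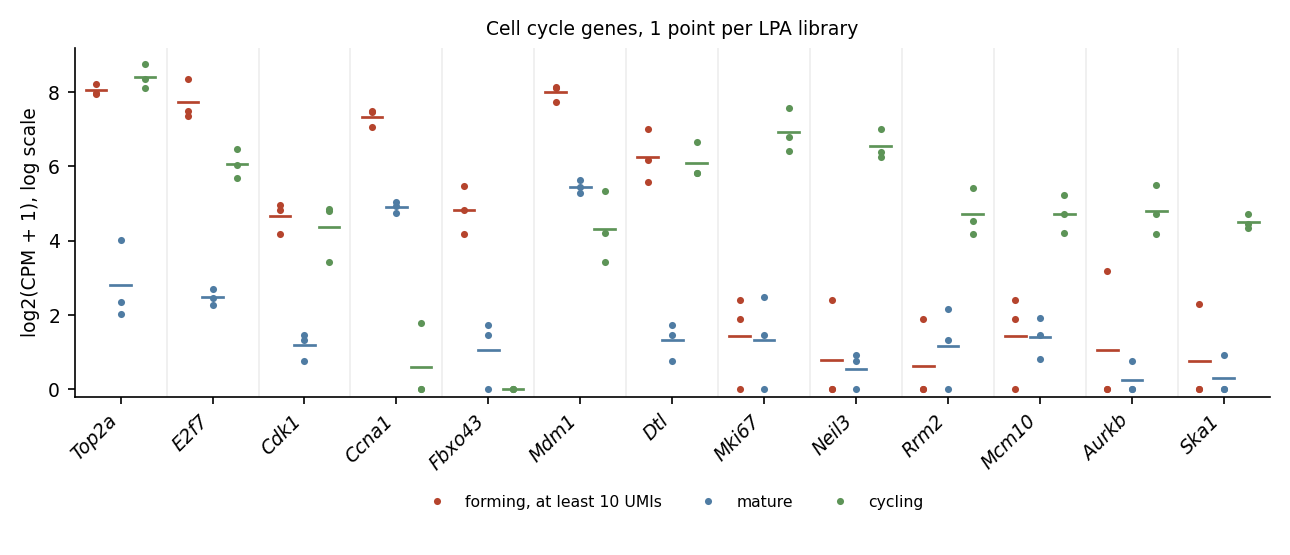
Levels of cell cycle genes as log2(CPM + 1) in forming nuclei with at least 10 UMIs, mature and cycling nuclei, where points are the 3 LPA libraries and lines their means; Top2a and Mki67 chose the cycling nuclei. Top2a, Cdk1 and Dtl lie close to cycling nuclei, Ccna1, Fbxo43 and Mdm1 above both other populations, and Mki67, Neil3, Rrm2, Mcm10, Aurkb and Ska1 near mature nuclei.

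The genes of the cilium itself were on in forming nuclei. Against cycling nuclei all 23 tested genes of axonemal dyneins and their docking (median 4.66), all 38 of radial spokes, central pair and ruler (median 4.81) and all 13 dynein assembly factors were higher, but cycling nuclei were limited to at most 2 cilia UMIs, which bears on these counts. Against astroglial nuclei, where 1167 of 11197 genes were higher (10.4%) and 474 lower (4.23%), 14.7% in all, the same 2 cilia lists were higher for 23 of 23 and 38 of 38 genes, with the same limit. With at least 10 UMIs they were higher for 23 of 23 and 40 of 40 genes, where 13.3% of 11857 genes were higher and 5.57% lower, 18.8% in all. Against mature nuclei the levels were somewhat lower, with medians of -0.60 and -0.64 and 2 and 5 genes lower. Mature nuclei had to hold at least 8 cilia UMIs, and among forming nuclei that met this too the medians were -0.11 and -0.08 with none and 1 lower. Over all 11777 genes of that fit 3.06% were higher and 2.18% lower, 5.24% in all. Of 27 basal body and transition zone genes none was a DEG, and of 25 intraflagellar transport genes 1 was lower, Ift27.

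Single axonemal genes departed from this. Dnah8, a dynein heavy chain known chiefly from sperm, was at 163, 173 and 182 CPM in LPA nuclei with at least 10 UMIs, against 2.76, 11.6 and 3.83 in mature nuclei (4.50, SE 0.39, adjusted p = 2.57e-09). Ccdc39, which sets the repeat length along the axoneme, was at 865 ± 9.32 and 501 ± 30.03 CPM (0.71, SE 0.11, adjusted p = 9.64e-05 with at least 10 UMIs, and 0.35, adjusted p = 0.132, over all forming nuclei). Dnah11 and Armc4, of the outer dynein arm and its docking, were lower, at 312 ± 19.2 against 813 ± 67.8 CPM and 75.6 ± 10.3 against 318 ± 39.1 CPM (-1.10, SE 0.14, adjusted p = 1.76e-06, and -1.47, SE 0.14, adjusted p = 2.62e-08, over all forming nuclei). With at least 10 UMIs their changes were -1.45 (SE 0.13, adjusted p = 3.22e-08) and -2.11 (SE 0.17, adjusted p = 8.18e-09). Among forming nuclei with at least 8 cilia UMIs they changed by -0.75 and -0.93, under the limit.

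Markers of the finished ependymal cell were lower than in mature nuclei. Of 19 tested, 8 were lower and none higher (median -0.96), and 5 of 20 were lower (median -0.51) among forming nuclei with at least 8 cilia UMIs. Tmem212 was at 98.5, 86.7 and 150 CPM, against 697, 612 and 650 (-1.79, SE 0.17, adjusted p = 8.88e-09 over all forming nuclei, and -2.59, SE 0.16, adjusted p = 1.49e-10 with at least 10 UMIs), and Ccdc153 at 84.1 ± 2.68 against 214 ± 21.1 CPM (-1.53, SE 0.16, adjusted p = 5.71e-08). Sntn, a protein of the ciliary tip, was at 0, 0 and 5.44 CPM against 55.2, 32.1 and 56.6, and Nnat at 514, 154 and 234 against 1091.4, 1180.1 and 1065.2 CPM (-1.42, SE 0.19, adjusted p = 4.93e-06 over all forming nuclei, and -2.01, SE 0.24, adjusted p = 2.13e-06 with at least 10 UMIs). No forming value reached the mature range in these 4 genes. Sspo, whose product forms Reissner's fibre, was at 0, 0 and 2.72 CPM against 53.8, 76.7 and 52.8 (adjusted p = 4.55e-09). The largest falls by the naming rule also included Endog, a mitochondrial nuclease (-3.20), Dthd1 (-2.64) and Col5a3 (-2.55), and Npsr1, Paqr5 and Cphx3 on fewer UMIs.

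Markers of other cells differed by list. Against mature nuclei, none of 20 astrocyte, 13 neuron, 16 oligodendrocyte lineage and 15 Notch pathway genes was a DEG (1 astrocyte and 2 Notch pathway genes were lower with at least 10 UMIs), and 2 of 11 choroid plexus genes were lower, Folr1 and Otx2 (5 of 10 with at least 10 UMIs). Forming but not mature nuclei were limited to 2 UMIs of Slc4a5, Kl and Clic6, which favours lower choroid plexus genes. Of 17 radial glia and stem cell genes 1 was higher, Tnc, and 3 were lower, Hopx, Sox9 and Crb2 (1 and 1 of 18 with at least 10 UMIs). Sox9, a factor of glial precursors that astrocytes and ependymal cells also carry, was at 25.7, 27.6 and 21.8 CPM in LPA nuclei with at least 10 UMIs against 52.4, 51.7 and 53.6 in mature nuclei (-1.26, SE 0.25, adjusted p = 0.000639). Of 11 immune genes 1 was lower, Dock8 (3 of 13 with at least 10 UMIs), and of 9 neuroblast genes 1 was higher, Dlx1 (none with at least 10 UMIs). Neuron markers summed to 8219, 11380.4 and 11220.5 CPM in LPA nuclei with at least 10 UMIs and 9446, 10132 and 13196 in mature nuclei, with Meg3 holding the most UMIs and no marker at 0. Astrocyte markers summed to 4624 ± 1393 and 4580 ± 571 CPM, with Slc1a2 the most abundant and none at 0. Of 15 vascular and meningeal genes 2 were higher, Col1a1 and Dcn, and both rested on LPA 3, with 4.28, 0 and 177 CPM of Col1a1 and 0, 15.8 and 122 of Dcn. Of 13 tested genes of LPA receptors and LPA metabolism 1 was lower and none higher, and the counts were the same with at least 10 UMIs. Lpar1, an LPA receptor, was at 90.4 ± 11.98 CPM against 133 ± 26.0 in mature nuclei (-0.13, SE 0.15, adjusted p = 0.694 over all forming nuclei).

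**Figure D4:**
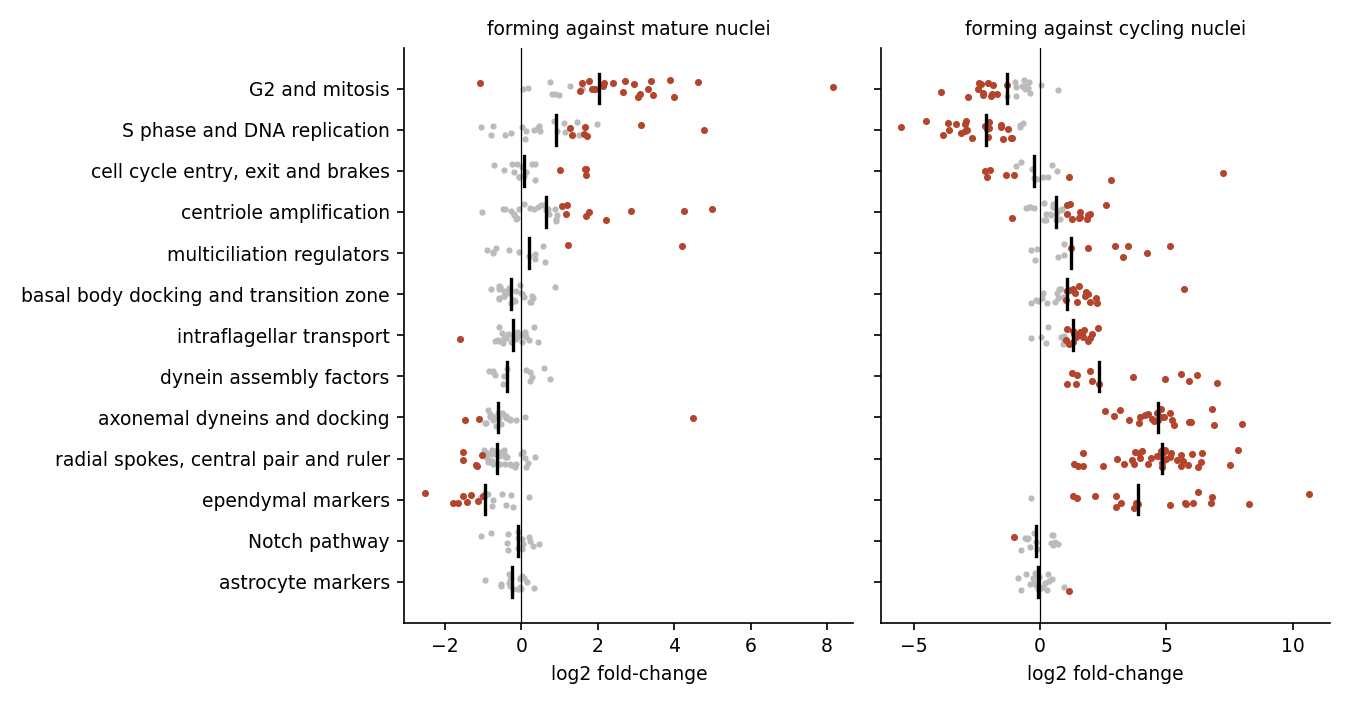
Log2 fold-changes of the tested genes of 13 lists in forming against mature nuclei (left) and against cycling nuclei (right), where each point is a gene, red points are DEGs and black bars are medians. G2 and mitosis and centriole genes lie to the right against mature nuclei, with medians of 2.03 and 0.65, and S phase genes to the left against cycling nuclei, with a median of -2.14.

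The forming nuclei varied among themselves along the level of the cilia genes. The 110 LPA nuclei with at least 10 UMIs were ranked by the 4 cilia genes per total UMIs, separately within each LPA library. Each library was split into a lowest, a middle and a highest tier, which held 37, 37 and 36 nuclei over the LPA libraries. The values below are descriptions, since the tiers were cut from a score and neighbouring nuclei at a cut differ little. Deup1 increased from 329 ± 46.0 CPM in the lowest to 1290 ± 323 in the middle and 1797 ± 263 in the highest tier (n = 3 LPA libraries). Mcidas was at 162 ± 73.8, 601 ± 177 and 442 ± 90.9 CPM, highest in the middle tier in LPA 2 and LPA 3 and in the highest tier in LPA 1. Plk4 was at 95.9 ± 11.5, 359 ± 82.5 and 496 ± 60.2 CPM.

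Ccna1 differed between the libraries along the tiers. Its levels were 42.2, 54.9 and 32.7 CPM in the lowest, 165, 17.3 and 270 in the middle and 571, 718 and 278 in the highest tier, so that in LPA 3 the middle and the highest tier differed little. The mitotic cyclin gene Ccnb1 was at 1.56 ± 2.69, 5.76 ± 9.98 and 43.3 ± 21.4 CPM, and Gmnc at 8.21 ± 1.25, 29.0 ± 13.4 and 86.0 ± 30.1. The summed lists of the tiers, here and below, leave out the genes that chose the populations, such as Deup1, Top2a and Slc4a4. They are therefore not the same sums as those given for whole populations. The summed G2 and mitosis list was at 448, 1241 and 2062 CPM and the S phase list at 450, 919 and 619, so the second was highest in the middle tier. The ependymal list had means of 1492, 3262 and 4458 CPM, although in LPA 3 the middle tier (4172) was above the highest (4126).

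Depth and markers of other cells differed between the tiers. Median UMIs per nucleus were 9084, 5479 and 4154 from the lowest to the highest tier. Summed astrocyte markers were at 5521, 1824 and 1723 CPM, neuron markers at 12687.5, 9046 and 4315, and oligodendrocyte lineage markers at 4081, 758 and 821. In LPA 1 astrocyte markers were higher in the highest (2165) than in the middle tier (1659), and neuron markers higher in the middle (9721) than in the lowest (8540). Choroid plexus markers were at 2730, 818 and 1620 CPM, where the highest tier held 3402 in LPA 1, 758 in LPA 2 and 701 in LPA 3. Gpc5, an astrocyte marker, was at 1732 ± 755, 223 ± 81.4 and 200 ± 48.6 CPM. The part of depth and of these markers in the tiers was not tested.

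**Figure D5:**
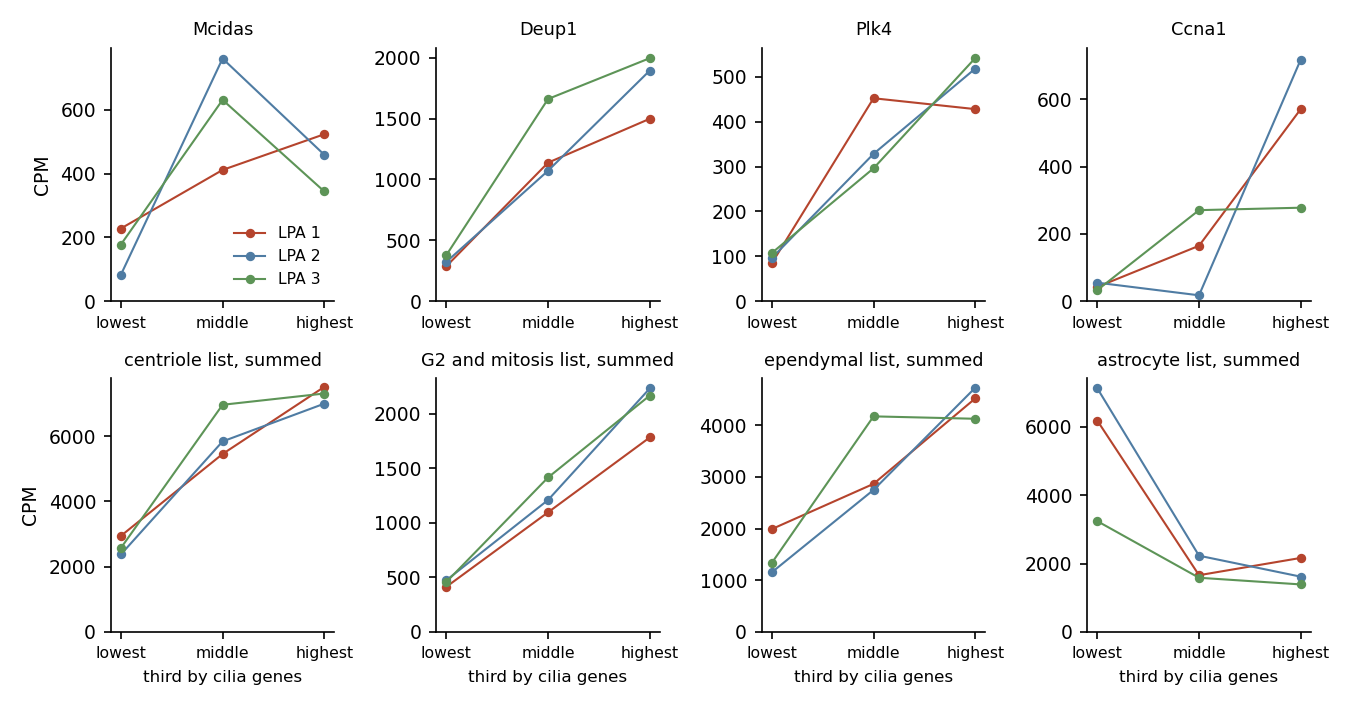
CPM of 4 genes and of 4 summed lists (without the genes that chose the populations) in the 110 LPA nuclei with at least 10 UMIs. The nuclei of each LPA library, 1 line each, were split into 3 tiers by the level of the cilia genes per total UMIs. Deup1 and the centriole and mitosis lists increased from tier to tier in all 3 libraries, while the mean of the astrocyte list went from 5521 in the lowest to 1723 CPM in the highest.

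The 6 vehicle nuclei with at least 10 UMIs (2, 1 and 3 per library) were too few for a test between the groups. Their pooled UMIs gave 167 CPM of Foxn4 (exact Poisson 95% interval 45.6 to 429, counting error only), 377 of Stil (172 to 715), 502 of E2f7 (260 to 878) and 670 of Top2a (383 to 1088). The LPA means were 98.8, 306, 222 and 266 CPM. In vehicle 1, 2 and 3 these values rested on 5, 1 and 6 UMIs of E2f7 and on 4, 3 and 9 of Top2a. The intervals leave out the spread between libraries, so no difference between the groups is read from them. Foxj1 had 0 UMIs (interval up to 154 CPM) and Trp73 1 UMI (41.9 CPM, 1.06 to 233), beside LPA means of 150 and 204 CPM.

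Whole libraries were compared last, to see how much of the LPA response in these genes lay in so few nuclei. In these sums, as in bulk samples, more nuclei of a kind and more RNA per nucleus cannot be told apart. The forming nuclei were chosen with their higher share in LPA known, so a test of a gene with many UMIs in them is not independent of that share. Of 20604 genes, 642 were higher in LPA (3.12%) and 397 lower (1.93%), 5.04% in all, by edgeR at a log2 fold-change of at least 0.25. Ccna1 was at 2.28, 2.15 and 2.19 CPM in LPA and 0.545, 0.448 and 0.311 in vehicle libraries (log2 fold-change 2.36, SE 0.20), with the groups far apart. No test is given for this change, which partly restates the share of forming nuclei. Without the forming nuclei the change of Ccna1 was 1.55 (SE 0.24, adjusted p = 0.0109), which passed the test. Forming nuclei held 38.3%, 50.9% and 49.2% of its UMIs in the LPA libraries and 0%, 6.90% and 5.88% in the vehicle libraries.

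Foxn4 was at 0.694, 0.510 and 0.889 CPM in LPA and 0.189, 0.0463 and 0.0548 in vehicle libraries, and forming nuclei held 77.1% to 87.5% of its UMIs in the LPA libraries and 11.1%, 33.3% and 66.7% of the 9, 3 and 3 UMIs in the vehicle libraries. Its difference thus largely restates the share of forming nuclei, and no test is given. Stil was at 3.91, 4.16 and 5.06 against 1.66, 2.05 and 2.37 CPM (1.12, SE 0.17, adjusted p = 0.00939) and at 0.41 (SE 0.16, adjusted p = 0.205) without the forming nuclei. E2f7 was at 3.97, 3.34 and 3.74 against 1.99, 1.87 and 1.97 CPM (0.94, SE 0.12, adjusted p = 0.00504) and at 0.36 (SE 0.13, adjusted p = 0.163) without them. In Foxn4, Stil and E2f7 every LPA library was above every vehicle library. This was not so for Plk4, at 10.8, 8.18 and 9.21 CPM in LPA and 8.91, 7.56 and 8.90 in vehicle libraries. Fbxo43 also overlapped, at 0.278, 0.586 and 0.649 against 0.315, 0.432 and 0.384 CPM. Rfx4, a factor widely present in astroglia, passed the test, with 0.72 (SE 0.08, adjusted p = 0.00273) in the whole libraries and 0.71 (SE 0.08, adjusted p = 0.00329) without forming nuclei. Astroglial nuclei were 26.8 ± 1.58% of LPA and 21.9 ± 2.24% of vehicle libraries (exact permutation test, p = 0.1). The part of this share in the change of Rfx4 was not tested.

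By list, 5 of 17 regulators were higher in LPA and 2 of 16 without the forming nuclei, none lower. On the regulator list, Foxn4 and Ccno had most of their LPA UMIs in forming nuclei (56.4% to 66.7% for Ccno). Leaving out nuclei chosen with their higher share in LPA known can lower such counts by itself. The counts with and without them are therefore a description. Axonemal dynein genes were higher for 3 of 23 and for none without them, radial spoke genes for 6 of 41 and 1, and G2 and mitosis genes for 3 of 36 (1 lower) and none (1 lower). Injury response genes of glia, among them Gfap, were higher for 7 of 18 and lower for 1, with and without the forming nuclei. In both fits 6 of 17 immune markers and 7 of 19 radial glia and stem cell markers were higher and none lower. Of 19 vascular and meningeal markers 9 were lower and 1 higher in both fits. The part of shares of cell types in these changes was not tested. Without the forming nuclei 573 genes were higher (2.79%) and 383 lower (1.86%) of 20539, 4.65% in all. The difference between the fits was not itself tested, and the counts without LPA 1, LPA 2 or vehicle 3 were 338, 529 and 418 genes in place of 1039.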

How the data were processed

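Filtered matrices of raw UMI counts per gene and nucleus were deposited by the authors, who aligned 10x 3′ v3 libraries to a pre-mRNA mm10 reference with Cell Ranger 4.0.0 (submitters' processing notes). Their SCTransform clustering was not repeated. The members, lists and tests were chosen with earlier results of these data known. The cycling rule and the split at 10 UMIs were set after numbers of nuclei were seen, as were the fits of LPA libraries only, cycling from 5 UMIs and forming nuclei with at least 8 cilia UMIs. Populations were gated by UMIs of fixed genes and gate genes were left out of the contrasts of the populations they chose. UMI counts summed per library and population (at least 10 nuclei) were tested by edgeR 4.0.16 quasi-likelihood (TMM scaling, filtered by expression, library block, 4 populations in 1 fit, Benjamini-Hochberg adjustment), and whole libraries without a block; the steps were tested on simulated data. DESeq2 1.42.0 was an alternative. CPM are UMIs scaled to a population's total. The naming rule took all regulators, of each list the 3 highest by CPM and the 2 largest rises and falls, and DEGs of at least 20 CPM that moved alike in all 5 libraries (15 rises and 10 falls against mature nuclei, 5 each against the others); a few further list genes were named after their values were seen. Doublets were marked by Scrublet (expected rate 0.08) and kept, unless stated. SE is the log2 fold-change over the root of F. Libraries of a group differed by 16.4 to 31.7 times sampling noise (chi-square per degree of freedom).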

Additional observations from a re-analysis of the deposited data

How the results depend on the processing

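The number of DEGs forming vs mature was 515, and 1340 at a log2 fold-change limit of 0.25, 970 with Scrublet doublets left out, 923 with at least 10 UMIs, 864 with at least 2 of the 3 genes, 776 with at least 3 UMIs, 341 in a fit of 2 populations, 1299 with forming nuclei of under 8 cilia UMIs and 836 with no filter on low counts. Leaving out 1 library gave 371 to 594. That of DEGs forming vs cycling was 1542, and 2744, 2499 and 890 for the limit of 0.25, Scrublet doublets left out and 2 populations (1413 to 1639 with 1 library left out). That of DEGs forming vs astroglial was 1641, and 3516 and 2738 for the first 2 of these (1545 to 1799). The causes of these moves were not tested. With forming nuclei of under 8 cilia UMIs, Myb (-0.16), Foxj1 (-2.05), Ckap2l (-2.19), Kif4 (-0.65) and Ccdc192 (-1.98) had negative log2 fold-changes against mature nuclei. The share of forming nuclei differed by 0.644 percentage points between the groups and by 0.378 with at least 10 UMIs, and by 0.539 to 0.700 with 1 library left out. The mature share differed by 0.542 points, by -0.0575 without the mitochondrial filter and by 0.131 to 1.17 with 1 library left out. The whole-library count was 1039 and 338 to 1190 with 1 library left out.

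The replicate numbers did not pair the libraries: same-numbered libraries correlated in their deviations at 0.111, 0.249 and -0.00687. The fit with the replicate block gave 1233 DEGs.

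Forming nuclei are few, with 12 in each of the 2 vehicle libraries tested, and folds of genes with few UMIs are imprecise. Nuclei of 1 library share its free RNA. The libraries are separate brains, but litters are not known here. The p-values between whole libraries measure the spread between these libraries. Those between populations measure the spread left after the library block. The share of forming nuclei has no test, since it was chosen with its values known.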
